A study of Mus musculus with 36 samples.

Results

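Transcripts of the genes for subunits of RNA polymerases I, II and III and of the Mediator complex were followed through sorted P-bodies, cytoplasm, polysomes and total RNA of mouse cells. The genes were chosen by symbol alone, as every symbol made of Polr1, Polr2 or Polr3 and a letter from a to l, or of Med and a number with or without a final l. The rule itself used no measured value. It gave 58 symbols among the 50216 distinct symbols of the count tables, 28 of them polymerase and 30 Mediator. Of these, 57 were tested in every comparison, and Polr2k-ps, a pseudogene listed in 1 of the 3 tables, had no reads there and was not tested.

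The 36 libraries formed 16 groups. P-bodies, cytoplasmic condensates of RNA and protein, had been sorted as fluorescent particles from cells that carried GFP-LSM14A under a constitutive EF1a promoter, and the cytoplasmic fraction taken before the sort was the comparison, with 2 libraries per fraction. Polysome-bound RNA was set against total RNA kept from the same lysates, with 3 libraries per fraction, in cycloheximide-treated ES cells. The study pooled the gradient fractions in which it found ribosomes, and polysome here names that pool. It was not stated to leave out single ribosomes. The study describes the replicates of its sequencing assays as biological, and p-values measure the spread between these libraries. The naive and primed ES cells were v6.5 cells, naive in 2i/LIF medium and primed in activin A with bFGF. Mouse embryonic fibroblasts (MEFs) were prepared from mid-gestation embryos without head, limbs and internal organs, and carried doxycycline-inducible Oct4, Klf4, Sox2 and c-Myc with an Oct4 reporter. Cells named d3 were MEFs with these inducible factors on day 3 of reprogramming. They held either a Nudt21 short hairpin RNA or a control one, and their controls were therefore induced with the same 4 factors. The Ago2 KO ES cells carried a CRISPR deletion in Ago2 and had no control in their own table. The DDX6 degron cells had been isolated as single-cell clones, both the treated and the control libraries carried the FKBP12F36V tag on Ddx6, and the treated ones had received dTAG-13 for 6 h, the compound that removes the tagged protein.

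RNA polymerase I makes the large ribosomal RNA, polymerase II makes messenger RNA, and polymerase III makes transfer RNA and other small RNAs. Each enzyme is built around its own pair of large catalytic subunits, to which a set of small subunits is added. Some of the small subunits are common to all of these enzymes and others only to I and III. Mediator is a large assembly of head, middle, tail and kinase modules held together by a scaffold subunit, and it passes signals from DNA-bound activators to polymerase II. In ES cells it is known for its place at enhancers that hold the pluripotency genes active.

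Reads assigned to genes ran from 6769727 to 12772173 per library in the ES cell fractions, from 19384697 to 31185799 in MEFs and d3 cells, from 15624342 to 17486206 in the Ago2 KO cells and from 13308776 to 29362187 in the polysome set. The subunit genes took 0.23% to 0.453% of these reads. Naive markers summed to 1770 to 2671 CPM (reads scaled to a fixed library total) in naive and 408 to 456 CPM in primed fractions, and fibroblast markers to 8353 to 27800 CPM in MEFs, where Col1a1 and Col1a2 led. Ago2 stood at 2.57 to 4.52 CPM in the 4 Ago2 KO libraries and at 67.2 to 111 CPM in naive fractions, which were normalized in another table. Nudt21 stood at 5.01 to 5.96 CPM in knockdown and at 89.1 to 115 CPM in control d3 libraries. Ddx6 RNA cannot check a degron that acts on the protein. Ago2 KO cytoplasm replicate 2 stood apart from its partner, with an SD of 0.603 for the log2 difference over genes against 0.113 to 0.43 in the other pairs. Fewer cells of a kind and less RNA per cell cannot be told apart in any of these bulk libraries.

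Some subunit genes of an enzyme were enriched in P-bodies while others of the same enzyme were depleted. In MEFs 27 of 57 subunit genes were enriched in P-bodies over cytoplasm and 20 were depleted, where 26.6% and 28.7% of all tested genes were called in these directions and 55.3% in either (called means an edgeR quasi-likelihood adjusted p under 0.05 over all tested genes). The median subunit gene lay at a log2 fold change of 0.30 in MEFs against 0.03 over all genes. In primed ES cells 15 were enriched and 13 depleted, against 26.5% and 24.2% of all genes (50.7% in either direction). In naive ES cells 10 were enriched and 13 depleted, against 22.6% and 15.4% of all genes (38% in either direction). The naive count rested on single libraries, as 7 genes were called without either P-body replicate, 42 without cytoplasm replicate 1 and 38 without cytoplasm replicate 2. The shares of all genes called in those fits are not given, so these counts are no result about the subunit genes. With all libraries, the shares in primed cells were close to the background of all genes, whereas in MEFs 47.4% of the subunit genes were enriched and 35.1% depleted.

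**Figure D1:**
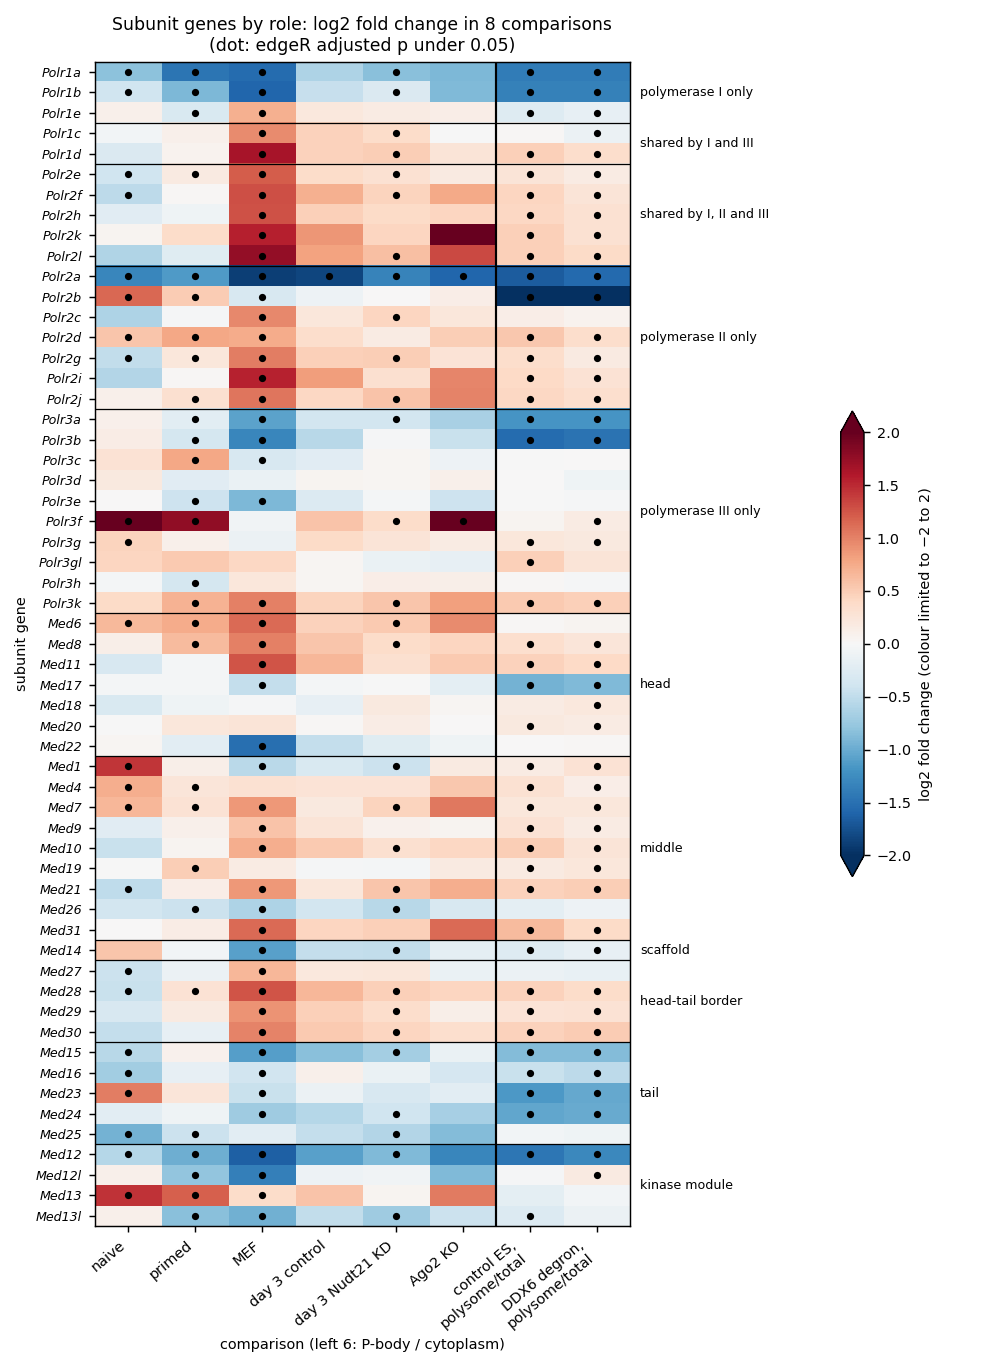
Log2 fold change of the 57 tested subunit genes (vertical axis, grouped by role) in 8 comparisons (horizontal axis), red for higher in the P-body or polysome fraction and blue for lower, with a dot where the edgeR adjusted p was under 0.05. The large subunit genes Polr1a, Polr1b and Polr2a are blue across the P-body columns, and the 5 subunits shared by all polymerases are red in MEFs.

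Polr2a, which encodes the largest subunit of polymerase II and carries its C-terminal repeat domain, was the subunit gene depleted from P-bodies in all 6 cell types. Naive cells had it at 106 and 99.6 CPM in P-bodies and 288 and 304 CPM in cytoplasm (log2 fold change −1.30, SE 0.10, adjusted p = 0.000681). In primed cells the values were 69.4 and 72.8 CPM against 145 and 173 CPM (log2 fold change −1.13, SE 0.09, adjusted p = 4.72e-07). In MEFs they were 20.7 and 21.7 CPM against 75.4 and 78.3 CPM (log2 fold change −1.88, SE 0.10, adjusted p = 3.16e-06). Every P-body library of these cells lay below every cytoplasm library of its own cell type. This was common, at 36.9%, 37.1% and 39.1% of all genes in naive, primed and MEF cells. For 36.4%, 38.1% and 39.1% the P-body libraries lay wholly above, so groups that lie apart say little about a single gene. The shares below and above were 30.6% and 29.2% in control d3, 31.2% and 30.9% in Nudt21 d3 and 26.6% and 29.4% in Ago2 KO cells. On day 3 of reprogramming the control P-bodies held 37.1 and 27.9 CPM and the cytoplasm 122 and 113 CPM (log2 fold change −1.84, SE 0.16, adjusted p = 0.0495). With the Nudt21 knockdown they held 30.0 and 30.3 CPM against 79.2 and 73.2 CPM (log2 fold change −1.33, SE 0.11, adjusted p = 9.94e-05). Polr2a was the 1 subunit gene called in the control d3 cells, where 0.196% of all genes were called enriched and 0.45% depleted (0.646% in either direction). Ago2 KO cells had it at 27.1 and 32.1 CPM in P-bodies and 60.4 and 109.8 CPM in cytoplasm (log2 fold change −1.58, SE 0.34, adjusted p = 0.0292), and this call was lost in 3 of 9 settings, with adjusted p up to 0.229. The cytoplasm libraries of the Ago2 KO cells did not overlap the P-body libraries but lay far from each other.

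The catalytic subunits of polymerases I and III did not all follow Polr2a. Polr1a, the largest subunit of polymerase I, stood at 23 and 24.9 CPM in MEF P-bodies and 71.8 and 65.4 CPM in MEF cytoplasm (log2 fold change −1.54, SE 0.11, adjusted p = 7.1e-06). Primed cells had it at 64.6 and 68.9 CPM against 192 and 184 CPM (log2 fold change −1.46, SE 0.07, adjusted p = 6.65e-09). In naive cells the groups were again apart, at 84.5 and 91.1 CPM against 211 and 149.7 CPM (log2 fold change −0.83, SE 0.20, adjusted p = 0.0276), with the cytoplasm replicates unequal. Polr1b, its partner in the active site, fell in the same cells, by 0.40 on the log2 scale in naive, by 0.90 in primed and by 1.59 in MEF P-bodies. Polr3a and Polr3b, the corresponding pair of polymerase III, were depleted in MEFs at −1.06 and −1.31, and less so in primed cells at −0.22 (adjusted p = 0.0459) and −0.36 (adjusted p = 0.00367). In naive cells neither was called, with log2 fold changes of 0.11 and 0.15 and overlapping groups. The primed call of Polr3a was the least stable of these, as it held in 2 of 10 settings.

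Polr2b, the second largest subunit of polymerase II, was found on the other side of Polr2a in naive and primed ES cells. It reached 462 and 475 CPM in naive P-bodies and 239.6 and 251 CPM in naive cytoplasm (log2 fold change 1.16, SE 0.09, adjusted p = 0.000783). Primed cells had it at 392 and 399 CPM against 279.9 and 289.9 CPM (log2 fold change 0.51, SE 0.05, adjusted p = 4.52e-06). In MEFs the order turned, with 157 and 132 CPM in P-bodies and 181 and 174 CPM in cytoplasm (log2 fold change −0.31, SE 0.10, adjusted p = 0.0283), a call that held in 7 of 10 settings. The groups did not overlap in any of these cell types, and in naive and primed cells the genes for the 2 largest subunits of polymerase II lay on opposite sides. In Ago2 KO ES cells Polr2b lay at 0.13 without a call.

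**Figure D2:**
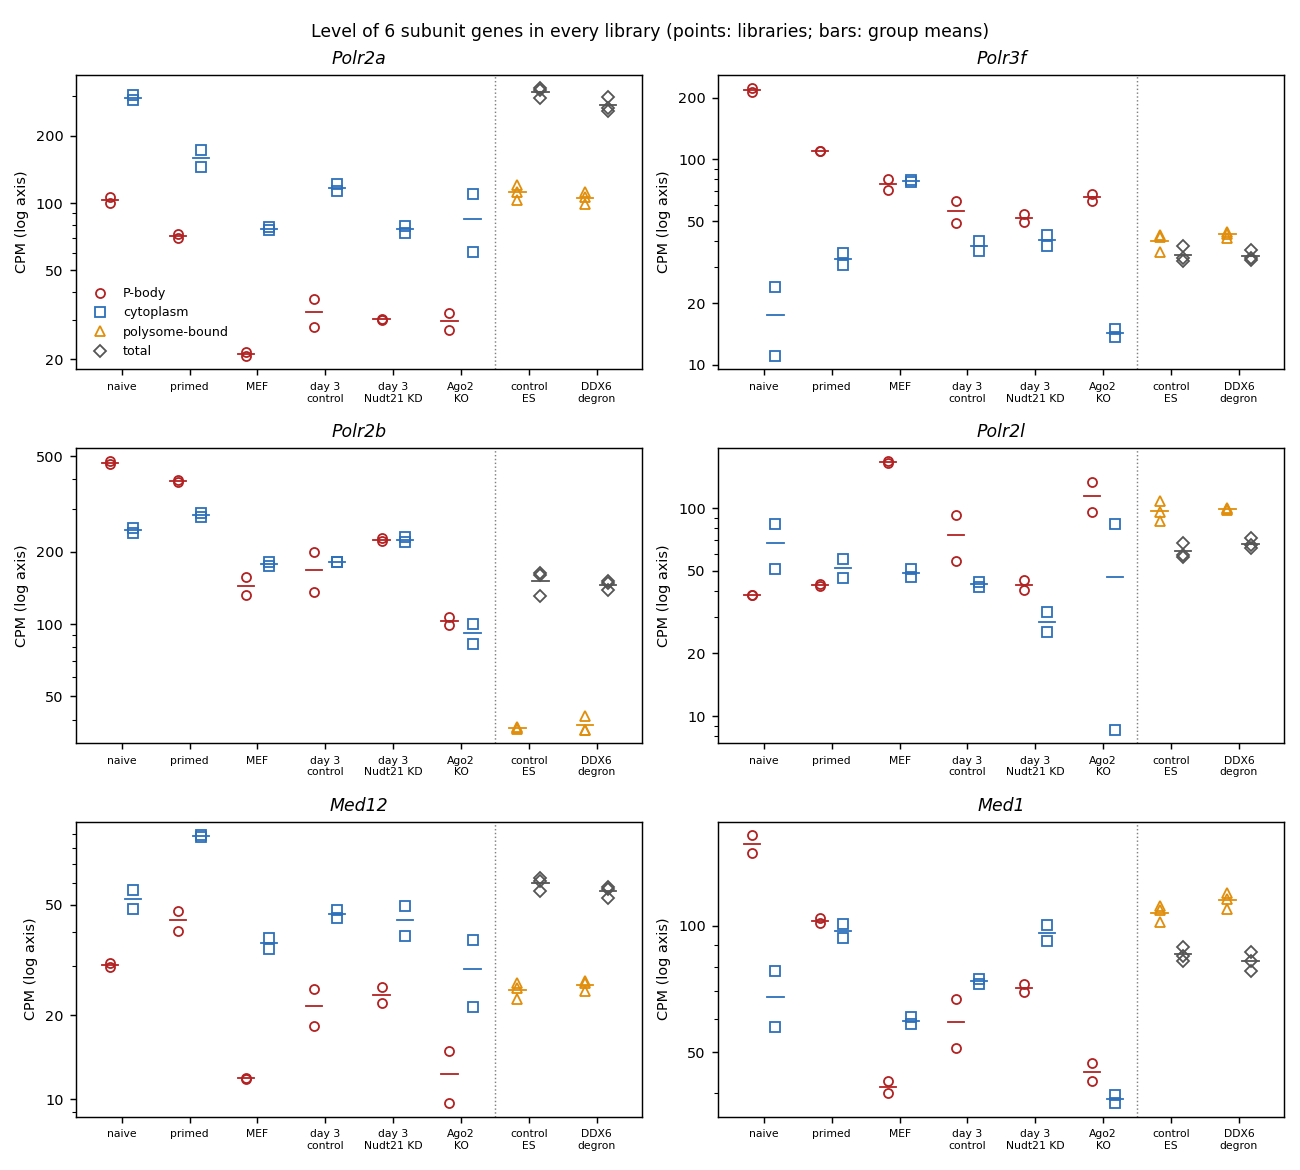
Level of 6 subunit genes (CPM, log axis) in every library, with P-body and cytoplasm fractions of 6 cell types left of the dotted line and polysome-bound and total RNA right of it. Points are libraries and bars group means, and the Ago2 KO and polysome sets were normalized in tables of their own. Polr2a lies lower in P-bodies in all cell types, whereas Polr3f lies higher in naive, primed, Ago2 KO and both d3 P-bodies and overlaps in MEFs.

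The 5 small subunits common to polymerases I, II and III were all enriched in MEF P-bodies, and none of them in naive P-bodies. Polr2l stood at 164 and 167 CPM in MEF P-bodies and 46.5 and 50.8 CPM in MEF cytoplasm (log2 fold change 1.75, SE 0.09, adjusted p = 3e-06), and was the most enriched subunit gene there. Naive cells had it at 38 and 38 CPM in P-bodies and 51.1 and 84.1 CPM in cytoplasm (log2 fold change −0.60, SE 0.22, adjusted p = 0.0876). Polr2e, which forms part of the jaw of the enzymes, stood at 205 and 225 CPM against 88.2 and 95.2 CPM in MEFs (log2 fold change 1.21, SE 0.09, adjusted p = 9.98e-06) and at 272 and 276 CPM against 392 and 455 CPM in naive cells (log2 fold change −0.40, SE 0.10, adjusted p = 0.0281). Polr2e groups were apart in both cell types, in opposite directions. Polr2f, Polr2h and Polr2k rose in MEF P-bodies by log2 fold changes of 1.29, 1.27 and 1.56, and of these Polr2f was depleted in naive P-bodies at −0.53 (adjusted p = 0.0258). Polr2k rested on few reads, at 14.3 and 11 CPM against 4.23 and 4.25 CPM in MEFs. In primed cells 1 of the 5 was called, Polr2e at 0.19 (adjusted p = 0.0289), which held in 5 of 10 settings. In Ago2 KO P-bodies the 5 lay from 0.19 to 2.19 and in control d3 P-bodies from 0.37 to 0.88, all above 0 and without a call. All 5 were lower in Ago2 KO cytoplasm replicate 2 than in replicate 1, Polr2l at 8.6 against 84.2 CPM and Polr2e at 216 against 347 CPM. Polr2e stood at 346 and 303 CPM in the Ago2 KO P-bodies, so it was not raised over cytoplasm replicate 1. With the Nudt21 knockdown 3 of the 5 were enriched. The naive pattern was not seen in primed cells, and the Ago2 KO values rest on unequal cytoplasm replicates. Polr1c and Polr1d, shared by polymerases I and III, were enriched in MEFs at 0.94 and 1.65 and not called in naive or primed cells.

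The smaller subunits found only in polymerase II moved with the shared ones in MEFs. Polr2c and Polr2j, which pair during assembly of the enzyme, rose in MEF P-bodies by 0.96 and 1.07 on the log2 scale. Polr2i, which helps the enzyme keep fidelity, rose from 13.5 and 18 CPM to 44.6 and 47.8 CPM (log2 fold change 1.53, SE 0.14, adjusted p = 2.56e-05). Of the exon bases of Polr2i, 26.8% also belong to Tbcb on the opposite strand, and the kit of the P-body libraries does not mark strand. Polr2d and Polr2g form the stalk of the enzyme. Polr2d was enriched in all of naive, primed and MEF P-bodies at 0.55, 0.77 and 0.75, whereas Polr2g was depleted in naive P-bodies at −0.49 and enriched in primed and MEF P-bodies at 0.23 and 1.02.

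Polr3f, a subunit of polymerase III that takes part in promoter opening, was the most enriched of the called subunit genes in naive, primed and Ago2 KO P-bodies. Naive cells had it at 212 and 223 CPM in P-bodies and 11 and 24.1 CPM in cytoplasm (log2 fold change 3.87, SE 0.34, adjusted p = 0.000971). In primed cells the values were 109.5 and 110.1 CPM against 30.6 and 34.9 CPM (log2 fold change 1.78, SE 0.09, adjusted p = 1.12e-08). In Ago2 KO cells they were 62.8 and 68.3 CPM against 13.7 and 15 CPM (log2 fold change 2.15, SE 0.25, adjusted p = 0.0024). The P-body and cytoplasm groups were apart in all of these ES cells, and the naive cytoplasm replicates were unequal. In MEFs the groups overlapped, at 71.4 and 80.3 CPM against 78.1 and 79.2 CPM (log2 fold change −0.07, SE 0.10, adjusted p = 0.573). In d3 cells the P-body groups lay above the cytoplasm, at 0.57 in control cells (adjusted p = 0.117, not called) and 0.37 with the Nudt21 knockdown (adjusted p = 0.0412). Polr3f differed between control d3 cells and MEFs by 0.69 (adjusted p = 0.0364). In Ago2 KO cells Polr3f and Polr2a were the subunit genes called (Polr2k, at 2.19, was not), where 5.47% of all genes were called enriched and 1.05% depleted (6.51% in either direction). Without Ago2 KO cytoplasm replicate 1, 30 subunit genes were called, and without replicate 2 there were 7. With the replicate number as a block, 20 were called. The shares of all genes in these fits are not given, so the counts are no result about the subunit genes.

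The other polymerase III genes showed smaller shifts. Polr3c, which binds beside Polr3f in the enzyme, was enriched in primed P-bodies at 0.77 (adjusted p = 2.84e-05) and depleted in MEF P-bodies at −0.31 (adjusted p = 0.0343). Polr3g and Polr3gl encode alternative forms of the remaining subunit of this trimer. Polr3g, the form known from pluripotent cells, stood at 101 and 92.3 CPM in naive P-bodies and 82.8 and 82.7 CPM in naive cytoplasm (log2 fold change 0.45, SE 0.11, adjusted p = 0.0263), and at 23.8 and 30.4 CPM in MEF cytoplasm. Polr3gl had few reads in every fraction, at most 6 CPM in the naive, primed, MEF and d3 libraries, and was not called in any P-body comparison. Polr3e, a subunit needed for initiation, was depleted in primed and MEF P-bodies at −0.41 and −0.90. Polr3k, which takes part in RNA cleavage and termination, was enriched in primed and MEF P-bodies at 0.70 and 1.01.

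Mediator genes lay on both sides in naive cells, primed cells and MEFs. MEF P-bodies were enriched for 13 of 30 Mediator genes and depleted of 12, against 26.6% and 28.7% of all genes. Primed P-bodies were enriched for 7 and depleted of 5, against 26.5% and 24.2% of all genes, and naive P-bodies for 6 and of 7, against 22.6% and 15.4%, so that the naive and primed counts of enriched genes lay near or below the background. Med14, the scaffold on which the modules are built, stood at 28.1 and 25 CPM in MEF P-bodies and 56.7 and 54.7 CPM in MEF cytoplasm (log2 fold change −1.09, SE 0.11, adjusted p = 3.74e-05), and in naive cells at 27.1 and 26.3 CPM against 24.5 and 17.6 CPM (log2 fold change 0.56, SE 0.21, adjusted p = 0.0956). The MEF groups were apart downwards and the naive groups apart upwards, the latter without a call. In the head, Med6 and Med11 were enriched in MEF P-bodies at 1.13 and 1.26, and Med17, the core of this module, was depleted at −0.48. Med22, a short head subunit, stood at 26.1 and 19.3 CPM in MEF P-bodies and 65.9 and 61.7 CPM in cytoplasm (log2 fold change −1.51, SE 0.15, adjusted p = 2.92e-05), whereas in naive cells it lay at 0.03. The 4 genes at the border of head and tail, Med27, Med28, Med29 and Med30, were all enriched in MEF P-bodies, at log2 fold changes of 0.66 to 1.25, and in naive cells Med27 and Med28 were depleted at −0.43 and −0.45.

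Med1, the subunit of the middle module that nuclear receptors contact, was enriched in naive P-bodies. It stood there at 165 and 149 CPM, against 57.6 and 78 CPM in naive cytoplasm (log2 fold change 1.44, SE 0.15, adjusted p = 0.00177). In primed cells the values were 104 and 102 CPM against 93.7 and 101 CPM (log2 fold change 0.11, SE 0.08, adjusted p = 0.236), and in MEFs 39.9 and 42.7 CPM against 60.7 and 58.4 CPM (log2 fold change −0.54, SE 0.10, adjusted p = 0.00138). The groups were apart upwards in naive cells and downwards in MEFs, and in primed cells the distance between them was small. Med26, which recruits elongation factors, lay at −0.43 (adjusted p = 0.034) in primed and −0.62 (adjusted p = 0.0377) in MEF P-bodies and was not called in naive cells at −0.37. In the tail, Med23 resembled Med1, at 77 and 81.1 CPM in naive P-bodies against 46.7 and 44 CPM in cytoplasm (log2 fold change 1.02, SE 0.12, adjusted p = 0.0022) and at −0.45 in MEFs. Med15, the tail subunit that activators bind, was depleted in naive and MEF P-bodies at −0.56 and −1.10. Med25, which is also a target of activators, was the second most depleted subunit gene in naive P-bodies (log2 fold change −0.95, SE 0.10, adjusted p = 0.0017).

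The kinase module, which holds Mediator off polymerase II while bound, contains a Med12 and a Med13 subunit, each with a paralog. Med12 was depleted in naive, primed, MEF and Nudt21 d3 P-bodies, at 11.9 and 11.8 CPM in MEF P-bodies against 38 and 34.7 CPM in cytoplasm (log2 fold change −1.63, SE 0.12, adjusted p = 8.46e-06), and at −0.57 in naive and −0.97 in primed cells. In control d3 and Ago2 KO P-bodies it lay at −1.09 (adjusted p = 0.0533) and −1.31 (adjusted p = 0.064) without a call. Med13 went the other way, at 30.6 and 28 CPM in naive P-bodies against 10.3 and 14.8 CPM in cytoplasm (log2 fold change 1.45, SE 0.20, adjusted p = 0.00378), and at 55.8 and 48.6 CPM against 24.1 and 22.9 CPM in primed cells (log2 fold change 1.19, SE 0.11, adjusted p = 2.22e-06). The groups of both genes were apart in naive cells, primed cells and MEFs. The paralog Med13l did not share the pattern of Med13, as it was depleted in primed and MEF P-bodies at −0.83 and −0.96 and lay at 0.11 in naive cells. Med12l, the paralog of Med12, had few reads, between 1.12 and 15.4 CPM in naive, primed and MEF fractions, and was depleted in primed and MEF P-bodies at −0.80 and −1.37.

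**Figure D3:**
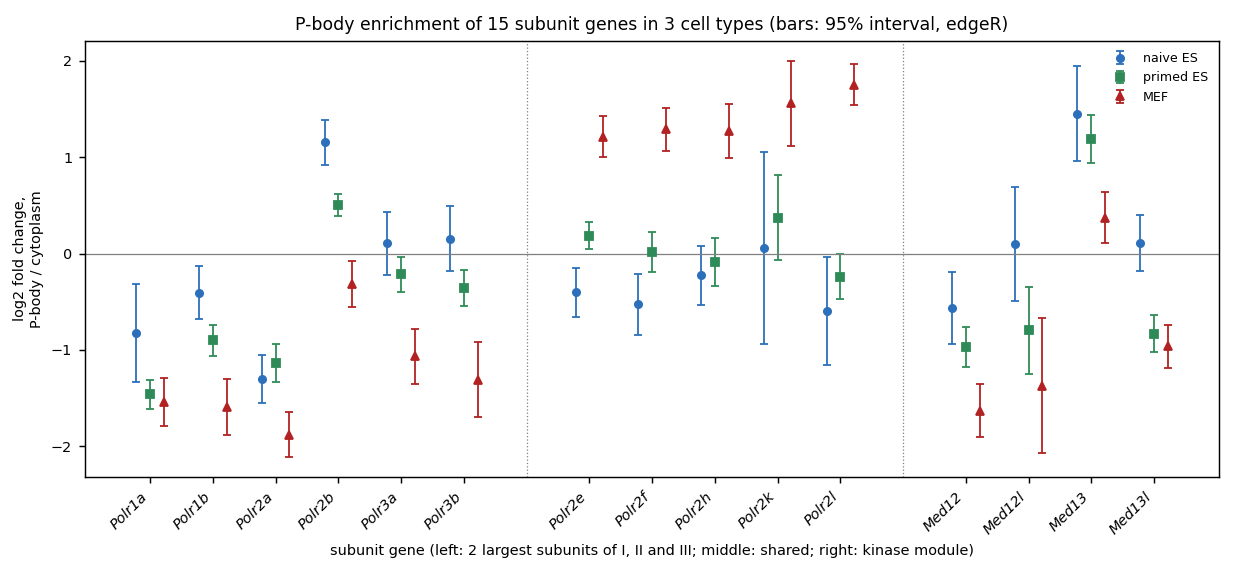
Log2 fold change of P-body over cytoplasm (vertical axis) for 15 subunit genes (horizontal axis) in naive ES cells, primed ES cells and MEFs, with 95% intervals from the edgeR fit. The shared subunits in the middle block lie above 0 in MEFs and at or below 0 in naive cells, apart from Polr2k at 0.06 in naive cells with a wide interval.

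Whether the P-body enrichment of a gene changed between cell types was tested as a difference of log2 fold changes. Between naive cells and MEFs 41 subunit genes differed, 15 higher in naive cells and 26 lower, against 21.5% and 19.8% of all genes (41.3% in either direction). The median difference was −0.46 over subunit genes and −0.17 over all genes. With all groups in a single fit the all-gene median moved to 0.02. Polr3f differed by 3.74 (SE 0.35, adjusted p = 3.2e-05), Med1 by 1.79 (SE 0.19, adjusted p = 6.86e-05), Med14 by 1.46 (SE 0.24, adjusted p = 0.000902), Med23 by 1.28 (SE 0.17, adjusted p = 0.000212) and Polr2b by 1.28 (SE 0.15, adjusted p = 0.000117), all higher in naive cells. All 5 shared subunits were lower in naive cells, from −1.68 (SE 0.19, adjusted p = 8.24e-05) for Polr2h to −2.54 (SE 0.26, adjusted p = 5.11e-05) for Polr2l. Polr2i, Polr1d and Polr1c differed by −2.30, −2.14 and −1.19, where a negative difference means less P-body enrichment in naive cells. All 4 kinase module genes were higher, at 0.88, 1.28, 0.89 and 0.88. Polr2a differed little, by 0.38 (SE 0.14, adjusted p = 0.0481), a call that held in 10 of 14 settings.

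The MEF fractions differed in other respects as well. The 5 nuclear-retained RNAs examined, led by Malat1, summed to 4756 and 6788 CPM in MEF P-bodies and 979 and 1060 CPM in MEF cytoplasm, and in naive cells to 543 and 520 CPM in P-bodies and 200.5 and 277 CPM in cytoplasm. In primed cells the order was opposite, at 659 and 604 CPM in P-bodies against 1069 and 852 CPM in cytoplasm. The 4 lung epithelial markers, of which Sftpc and Scgb1a1 were at 0 in MEF cytoplasm, summed to 5.89 and 86.9 CPM in the MEF P-body libraries against 0.0641 and 0.166 CPM in cytoplasm. The library with 86.9 CPM was MEF P-body replicate 2. The part of nuclear and lung RNA in the results was not tested.

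Between naive and primed cells 19 subunit genes differed, 5 higher in naive cells and 14 lower, against 13.9% and 11.4% of all genes (25.3% in either direction). The 5 were Polr3f, which differed by 1.95 (SE 0.35, adjusted p = 0.00443), Med1 at 1.18 (SE 0.18, adjusted p = 0.00185), Med13l at 0.80, Med23 at 0.64 and Polr2b at 0.51. Among the 14 were Med28 at −0.89 (SE 0.13, adjusted p = 0.00199), Polr2g at −0.86 (SE 0.12, adjusted p = 0.00167), Med21 at −0.78, Med15 at −0.78, Polr2e at −0.73 and Polr2f at −0.68. Polr2a (−0.31 (adjusted p = 0.145)) and Polr1a (0.50 (adjusted p = 0.15)) were not shown to differ. The split of 5 against 14 differed between settings, being 6 against 11 with DESeq2 size factors and 6 against 7 with all groups in a single fit. The cause was not tested. The shares of all genes called in these fits, or in those with a library left out, are not given. The counts are therefore no result about the subunit genes. The count moved with each library left out, to 36 and 29 without naive cytoplasm replicates 1 and 2, to 8 and 9 without the naive P-body replicates, to 7 and 8 without the primed P-body replicates and to 8 and 12 without the primed cytoplasm replicates.

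The control d3 cells were compared with the MEF libraries. Xist stood at 0 to 0.079 CPM in the MEF libraries and at 21.7 to 33.4 CPM in the control d3 libraries. No label says that both came from the same preparation of MEFs, and the part of any such difference was not tested. Against MEFs, 11 subunit genes differed in P-body enrichment in the control d3 cells, 5 upwards and 6 downwards. The shares over all genes were 9.59% and 5.13% (14.7% in either direction). Polr1b and Polr1a were less depleted, by differences of 1.18 (SE 0.20, adjusted p = 0.00538) and 0.96 (SE 0.17, adjusted p = 0.00549), and Med22 by 1.08 (SE 0.21, adjusted p = 0.00885). Polr1d, Polr2e and Polr2h were less enriched, by −1.15 (SE 0.19, adjusted p = 0.00434), −0.80 (SE 0.18, adjusted p = 0.018) and −0.75 (SE 0.22, adjusted p = 0.0442). Polr2a differed by 0.08 (adjusted p = 0.826). This count was 37 without d3 control P-body replicate 2, 1 without either d3 control cytoplasm replicate, 6 without MEF P-body replicate 1, and 2 and 4 without MEF cytoplasm replicates 1 and 2. The count of 1 gene within the control d3 cells rose to 45 and 35 without P-body replicate 1 or 2, whose log2 values differed with an SD of 0.389 over genes.

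In d3 cells with the Nudt21 knockdown P-bodies were enriched for 18 subunit genes and depleted of 12, against 9.04% and 12.8% of all genes (21.9% in either direction). Polr2l, Polr2j and Med21 were the most enriched of sufficient level, at 0.59, 0.58 and 0.56, and after Polr2a the most depleted were Med12 at −0.89 and Polr1a at −0.83. The count fell to 5 and 8 without cytoplasm replicate 1 or 2. Tested directly, the knockdown was not shown to change the P-body enrichment of a subunit gene. By edgeR 0 were called against the d3 control, where 0 and 0.0118% of all genes were called higher and lower, 2 (Polr2a and Polr3b) had an unadjusted p under 0.05, and DESeq2 called 0. Their differences were 0.53 (adjusted p = 0.894) and 0.55 (adjusted p = 0.894). Without d3 control P-body replicate 1 the count was 5.

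Polysomes were set against total RNA to ask which subunit transcripts were carried by ribosomes in ES cells, and whether loss of DDX6, an RNA helicase needed for P-bodies, altered this. In control cells 27 of 57 subunit genes were higher in polysomes and 15 lower, against 18.8% and 24.1% of all genes (42.9% in either direction). After DDX6 removal the counts were 29 and 15, against 24% and 26.8% of all genes (50.9% in either direction). The median over subunit genes was 0.14 in control and 0.16 in degron cells, and 0.02 over all genes in both.

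Polr2b was the subunit transcript least associated with polysomes. Its total level was 164, 161 and 131 CPM and its polysome level 36.5, 37.4 and 37.1 CPM in control cells (log2 fold change −2.20, SE 0.08, adjusted p = 3.62e-12), and 151, 138 and 148 CPM against 36.4, 41.4 and 36.4 CPM after DDX6 removal (log2 fold change −2.11, SE 0.06, adjusted p = 6.03e-19). Polr2a was next, at 327, 321 and 294 CPM in total and 120.1, 112 and 103 CPM in polysome-bound RNA of control cells (log2 fold change −1.66, SE 0.07, adjusted p = 7.03e-12). Every polysome library lay below every total library for both genes, as for 27.4% of all genes in control and 29.3% in degron cells. For 23.9% and 27.9% of all genes the polysome libraries lay wholly above. Polr1a, Polr1b, Polr3a and Polr3b followed with log2 fold changes of −1.40, −1.36, −1.17 and −1.54 in control cells. The 6 genes for the large catalytic subunits were therefore all lower in polysomes, in control and in degron cells. In Mediator, Med12 at −1.44, Med23 at −1.15, Med24 at −1.03, Med17 at −0.94 and Med15 at −0.86 were lower. Med1 was among the few long transcripts that were higher, at 109, 112 and 102 CPM in polysomes against 84.9, 88.9 and 82.7 CPM in total RNA (log2 fold change 0.16, SE 0.06, adjusted p = 0.0399), a call that held in 6 of 12 settings.

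All 5 shared polymerase subunits were higher in polysomes, at log2 fold changes of 0.26 for Polr2e to 0.48 for Polr2k and Polr2l in control cells. Polr2l stood at 95.8, 108 and 87 CPM in polysomes and 58, 59.5 and 68.1 CPM in total RNA (log2 fold change 0.48, SE 0.08, adjusted p = 0.000119), with no overlap. The most polysome-associated were Med31, a short middle subunit, at 0.63 (adjusted p = 0.000103), Polr2d at 0.54 (adjusted p = 3.93e-06) and Polr3k at 0.52 (adjusted p = 2.91e-05). After DDX6 removal Med30, Med21 and Polr3k led, at 0.51, 0.49 and 0.48. Polr3f, so unequal between the fractions of naive cells, was not called in control cells (0.05 (adjusted p = 0.654)) and lay at 0.16 (adjusted p = 0.0275) in degron cells, a call that held in 6 of 12 settings.

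The loss of DDX6 was not shown to move any subunit gene between total RNA and polysomes. The edgeR test of the difference called 0 subunit genes and 0 of all genes in either direction, 2 subunit genes (Med10 and Polr2d) had an unadjusted p under 0.05, and DESeq2 called 0 subunit genes. Their differences were −0.24 (adjusted p = 0.879) and −0.19 (adjusted p = 0.879). Over the subunit genes the differences ran from −0.25 to 0.19 on the log2 scale. For Polr2b the difference was 0.08 with a 95% interval of −0.14 to 0.31, and for Polr2a 0.10 with −0.08 to 0.29.

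What subunit genes on either side had in common was the length of the transcript, which the choice of genes did not use. The longest coding sequence per gene ran from 201 nt in Polr2l to 6648 nt in Med13l. Across 57 genes, Spearman's rho between coding length and log2 fold change was −0.83 in MEFs and −0.89 for polysome against total RNA in control ES cells, where it was −0.45 and −0.59 across all genes. In the d3 control, d3 Nudt21 and Ago2 KO cells it was −0.74, −0.79 and −0.73, in primed cells −0.38 and in naive cells 0.17. The Ago2 KO value rests on unequal cytoplasm replicates, of which replicate 2 was lower in short transcripts such as Polr2l. These rho values are over genes that share the same libraries, several belong to the same complexes, and they carry no p.

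**Figure D4:**
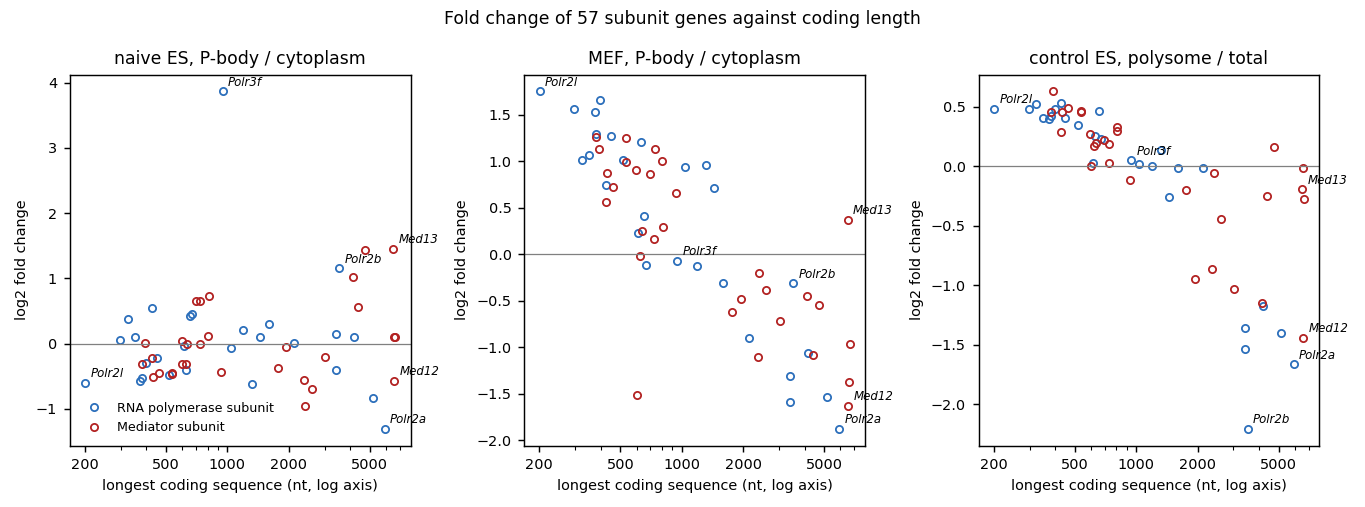
Log2 fold change (vertical axis) against the longest coding sequence (nt, log axis) for 57 subunit genes, with polymerase subunits in blue and Mediator subunits in red, in naive P-bodies, MEF P-bodies and control ES cell polysomes. The points descend with length in the MEF and polysome panels and show no such descent in the naive panel, where Polr3f, Med13 and Polr2b lie above 1.

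Counts by transcript length showed the same. Of the 19 subunit genes whose longest transcript was under 1500 nt, 17 were enriched and none depleted in MEF P-bodies, and 56.3% of all genes of that length were enriched and 3.76% depleted. Of the 24 over 3000 nt, 3 were enriched and 18 depleted, against 12.6% and 46.6% of all genes of that length. In polysomes of control cells 17 of the 19 short genes were higher and none lower, against 38.7% and 1.74% of short genes, and 3 of the 24 long ones were higher and 14 lower, against 12% and 36.2% of long genes. In naive P-bodies, by contrast, 3 of the short ones were enriched and 4 depleted, against 7.17% and 19.3% of short genes. Of the long ones 6 were enriched and 8 depleted there, while 32% of all long genes were enriched and 14% depleted. By coding length, Med22 was an exception among the shorter sequences in MEFs (600 nt, log2 fold change −1.51). Its longest transcript was 3506 nt, so by transcript length it was counted with the long genes. Among the longest, Med13 (6513 nt) was enriched in MEFs at 0.37, a call that held in 7 of 10 settings.

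In naive cells log2 fold change went instead with base composition, with a rho of −0.54 against the GC content of the longest transcript over 57 genes and −0.62 over all genes. In primed cells rho was −0.39 and −0.38, and in MEFs 0.01 and −0.07. It was −0.28 over the subunit genes and −0.48 over all genes in Ago2 KO cells. The values were −0.14 and −0.23 in control d3 cells and −0.19 and −0.28 with the Nudt21 knockdown. The subunit genes highest in naive P-bodies had GC contents of 41.8% (Polr3f), 40.5% (Med13), 46.8% (Med1), 46.0% (Polr2b) and 47.4% (Med23), while the lowest had 52.5% (Polr2a), 57.4% (Med25) and 51.1% (Polr1a). The median over the subunit genes was 51%. On the mm10 genome (GENCODE M21) Polr3f lies at chr2:144527718-144541995 on the plus strand, Polr2a at chr11:69733997-69758637 on the minus strand, Polr2b at chr5:77310147-77349324 on the plus strand and Med13 at chr11:86267033-86357602 on the minus strand. GC content and transcript length vary together across genes, and their parts were not separated here.

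Per length, subunit genes differed widely in level. Divided by the longest coding transcript, total RNA of control ES cells held 183 ± 16.4 RPKM of Polr2e (SD, n = 3), the highest level, and 3.19 ± 0.257 RPKM of Med12l, the lowest. Polr2a and Polr2b stood at 46.6 ± 2.65 and 36.6 ± 4.39 RPKM, Polr1b and Polr1a at 25.4 ± 0.639 and 12.9 ± 0.377 RPKM, and Polr3b and Polr3a at 17.5 ± 1.84 and 8.89 ± 0.577 RPKM. Polr3g stood at 22.1 ± 2.01 and its alternative form Polr3gl at 3.78 ± 0.629 RPKM. In the kinase module Med12 stood at 8.60 ± 0.459, Med13l at 7.52 ± 0.347 and Med13 at 5.93 ± 0.862 RPKM. Of the 10 highest genes 9 were polymerase subunits and 1, Med21, was a Mediator subunit.

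Over the 6 P-body comparisons, the subunit genes with the pattern most like Polr2a were Polr3c (Pearson's r = 0.90), Med24 (0.89) and Polr3b (0.76). Among the 12093 genes tested in all 6, the closest others were Syt5 (0.99), Fam57a (0.98), 5830444B04Rik (0.98), Fam118b (0.97) and Lyplal1 (0.97). Syt5 and 5830444B04Rik rested on few reads, with a mean level as low as 0.763 and 0.194 CPM in at least 1 comparison. With 6 points each, 137 genes had an r above 0.9, and a like pattern is not a like level, since Polr3c lay at 0.30 in naive cells where Polr2a lay at −1.30.

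The 77 other genes of the transcription machinery that were listed beside the subunits included general factors of polymerase II, elongation factors, factors of polymerases I and III, and subunits whose symbols follow other names. In naive P-bodies 36 of them were enriched and 5 depleted, in primed P-bodies 30 and 15, and in MEF P-bodies 30 and 25, to be read against the shares of all genes given above. In naive cells Ccnt1, the cyclin of the elongation kinase, lay at 2.97, the elongation factor Rtf1 at 2.59, and Bdp1, part of the initiation factor of polymerase III, at 2.56. Of 9 other subunits of polymerases and the kinase module, 5 were enriched in naive P-bodies and none depleted. Cdk19, a kinase of the Mediator kinase module, lay at 2.38 in naive, 1.29 in primed and −0.91 in MEF P-bodies, its paralog Cdk8 at 0.44 (not called), 0.49 and 1.12, and the polymerase I subunit Twistnb at 1.89, 0.60 and 1.27. Gtf3c1, a subunit of the factor that places polymerase III at its genes, was depleted in each of them, at −0.58, −0.94 and −1.86. In polysomes of control cells 23 of the 77 were higher and 30 lower, against 18.8% and 24.1% of all genes, led downwards by the histone chaperone Supt16 at −2.12.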

How the data were processed

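Per the study's methods, P-body and cytoplasm RNA was made into SMART-Seq libraries, read pairs were aligned to mm10 with hisat2, and reads were counted on refGene exons with featureCounts. The polysome, total RNA and Ago2 KO tables came from salmon. All 3 tables hold estimated counts per gene as the authors deposited them, partly fractional, and were rounded here to whole numbers. The authors' 10 tables of DESeq2 fold changes and p-values were not used.

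Groups and replicate numbers came from the sample titles. For each comparison edgeR (4.0.16, R 4.3.3) gave a two-sided quasi-likelihood test after TMM scaling, on the genes with 10 or more reads in all libraries of that fit together, with Benjamini-Hochberg adjustment over all of them and calls at an adjusted p under 0.05. Differences between conditions were interaction contrasts over 4 groups. CPM of single libraries use the library total, so precision follows the depth stated with the results. Transcript length, coding length and GC content are those of the longest GENCODE M21 transcript or coding sequence, and RPKM was computed from them. On simulated data, 56% of 2-fold changes were recovered for the naive comparison (15414 genes) and 84% for the d3 control (15436 genes).

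Named genes were a fixed set of large, shared and paralogous subunits plus, in each comparison, the 3 highest and 3 lowest called with a mean of at least 10 CPM. Others named were chosen after their values were seen. Members, lists and tests were chosen with earlier results of these data known. Alternatives were DESeq2 (1.42.0), its size factors in edgeR, filterByExpr, no filter, a block for the replicate number, a fit over every group of the table, and leaving out each library, where a lone library was assumed to vary like the others. Exon overlap with other genes was counted on both strands, since the SMART-Seq kit does not mark strand. The polysome and total RNA libraries were made with a directional kit. Of the 57 tested genes, 26 share exon bases with another annotated gene, 5 of them at least 20% with 1 gene.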

Additional observations from a re-analysis of the deposited data

Results flagged for a closer look

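Named subunit genes whose P-body enrichment differed between cell types, by the edgeR test of the difference itself, are gathered here with the difference of log2 fold changes. Named genes here are the fixed set plus the 3 highest and 3 lowest called in each comparison. Other genes that differed, such as Polr3f between control d3 cells and MEFs, are left out. Between naive cells and MEFs, 13 named genes were more enriched or less depleted in naive cells. They were Polr3f at 3.74, Med1 at 1.79, Med14 at 1.46, Med12l at 1.28, Polr2b at 1.28, Med23 at 1.28, Polr3b at 1.27, Polr1b at 1.0, Polr3a at 0.98, Med13 at 0.89, Med12 at 0.88, Med13l at 0.88 and Polr2a at 0.38. A further 8 were lower in naive cells, namely Polr2l at −2.54, Polr2i at −2.30, Polr1d at −2.14, Polr2f at −2.01, Polr2e at −1.81, Polr2k at −1.70, Polr2h at −1.68 and Polr1c at −1.19.

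Between naive and primed cells, the 5 named genes higher in naive cells were Polr3f at 1.95, Med1 at 1.18, Med13l at 0.80, Med23 at 0.64 and Polr2b at 0.51. The 6 that were lower were Med28 at −0.89, Polr2g at −0.86, Med21 at −0.78, Med15 at −0.78, Polr2e at −0.73 and Polr2f at −0.68. In control d3 cells against MEFs, 3 named genes were higher, Polr1b at 1.18, Med22 at 1.08 and Polr1a at 0.96, and 3 were lower, Polr1d at −1.15, Polr2e at −0.80 and Polr2h at −0.75. Nuclear-retained RNA was 4756 and 6788 CPM in the MEF P-body libraries and 520 to 543 CPM in the naive ones, and its part in these differences was not tested. Groups of 2 or 3 libraries were too small to test single libraries for standing apart.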

How the results depend on the processing

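No subunit gene that was called changed direction under any alternative. Of the values of single genes under the alternatives, 161 lost a call, 211 gained one and 92 stayed without a call but moved by more than their standard error, and the other 3545 changed in none of these ways. The number of subunit genes called fell from 28 to 16 in primed P-bodies with all groups in a single fit. In control d3 P-bodies it rose from 1 to 18 with DESeq2, 14 without a filter and 32 with all groups in a single fit. In Ago2 KO P-bodies it went from 2 to 1 with DESeq2 size factors, 8 with DESeq2 and 15 without a filter. For control d3 cells against MEFs it went from 11 to 19 with DESeq2, 17 without a filter and 21 with all groups in a single fit. The causes were not tested. These counts, and all those with a library left out, stand without the share of all genes under the same setting. They may follow a change over all genes and are no result about the subunit genes. With each library left out in turn, the counts ran from 7 to 42 in naive, 19 to 27 in primed, 38 to 50 in MEF, 1 to 45 in control d3, 5 to 37 in Nudt21 d3 and 2 to 30 in Ago2 KO P-bodies, and from 35 to 45 and 36 to 42 for polysomes of control and degron cells. For the differences they ran from 7 to 36 (naive and primed), 34 to 46 (naive and MEF), 1 to 37 (control d3 and MEF), 0 to 5 (Nudt21 and control d3) and 0 to 0 (degron and control).

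Each cytoplasm or total RNA fraction came from the material that gave a P-body or polysome fraction, but no label says that the replicate number marks this pairing. Correlations of their deviations were −0.06 in naive, 0.08 in primed, −0.01 in MEF, 0.18 and 0.20 in d3 and 0.64 in Ago2 KO cells, and −0.09 to 0.11 in the polysome sets, where not every library correlated best with its own number. With the replicate block, 3 subunit genes were called in control d3 cells and 20 in Ago2 KO cells, and the other counts stayed within 1.5 times. Under the block Polr1b and Polr2e lost their call in naive P-bodies, Polr3a in primed P-bodies and Med1 in control polysomes. Depth limits Polr2k, Polr3gl and Med12l, which lay near or under 10 CPM in most P-body libraries. The shallowest libraries were those of primed cytoplasm.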
